A study of Homo sapiens with 4 samples.

Results

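The integrated stress response is the pathway through which several kinds of stress lower general protein synthesis while raising the translation of the transcription factor ATF4. The values below describe 39 genes of this pathway, chosen by name as its kinases, phosphatase subunits, transcription factors and known ATF4 targets. The choice was made with earlier results of these data known. The genes were measured in RPE-1, an epithelial cell line of the human retinal pigment epithelium immortalized with telomerase. All cells were wild type, were kept for 48 h in medium with 0.1% serum to arrest them, and were then given 200 μM merbarone, an inhibitor of the catalytic cycle of type II DNA topoisomerases. The groups were 4 h and 8 h of merbarone, with 2 libraries each, and both groups therefore shared the cell line, the starvation and the drug. Untreated cells were not analysed here, so every change is from 4 h to 8 h of exposure, and it cannot be told apart from longer time in low serum.

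Of the 39 genes, 36 passed the filter on low values, a CPM over 1 in 2 or more libraries, among the 12559 genes of the 23459 listed that did so. The other 3 were almost silent. ALDH1L2, a mitochondrial folate dehydrogenase, had 2 and 5 counts at 4 h and 1 and 2 at 8 h. FGF21, a hormone of the fasting response, had 1 and 1 counts at 4 h and 0 and 2 at 8 h. INHBE, an activin subunit, had 5 and 3 counts at 4 h and 8 and 6 at 8 h. No change was calculated for these genes, which gave too few counts at a depth of 8064450 to 10324697 counts per library. Of 12 markers of differentiated retinal pigment epithelium, 8 did not pass the filter, with at most 7 counts in any library, and TYR and DCT had no count at all. The lineage factors MITF (669 to 882 counts) and OTX2 (132 to 193 counts) were present. PMEL (7 to 12 counts) and SERPINF1 (22 to 30 counts) also passed, with few counts. Of 7 fibroblast and endothelial markers 4 did not pass the filter, with at most 5 counts in any library. The others were PDGFRB (2632 to 3306 counts), PDGFRA (41 to 111) and DCN (21 to 38). Of 3 blood cell markers 2 did not pass the filter, with at most 8 counts in any library, and CD68 did (575 to 654 counts). The keratins KRT8 (3042 to 3966) and KRT18 (1927 to 3881) were present, as was VIM (88366 to 91660). The 2 replicates of each time are biological replicates per the study. The p-values set the change between the times against the spread between replicates, estimated with help from all tested genes.

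In this pathway 4 kinases each sense a different stress and phosphorylate the alpha subunit of the initiation factor eIF2. Phosphorylated eIF2 inhibits its exchange factor eIF2B, most initiation slows, and ATF4 is translated from a messenger whose short upstream reading frames otherwise divert ribosomes. ATF4 then pairs with C/EBP proteins on a composite DNA element and induces genes for amino acid synthesis, for the recovery of translation and, through DDIT3 (CHOP), for cell death. RNA counts do not record phosphorylation or translation, so what follows concerns messenger levels only.

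The composite element, called CARE, was looked for as TGATGNAA on both strands in RefSeq promoter windows of GRCh38.p14 (300 bases, 250 of them before the start). A window was found for 30 of the 39 genes, and 7 of these (23.3%) held a match in at least 1 window, namely PPP1R15B, ATF3, ASNS, JDP2, CHAC1, CEBPG and FGF21. Of all 27305 genes with such a window 4.46% held a match. Among tested genes with a window, 6 of the 29 pathway genes (20.7%) held a match, against 2.65% of all 10183. The pathway genes include known ATF4 targets by choice, so these shares were not tested against each other. The cyclic AMP response element, TGACGTCA, matched in PPP1R15A only among the 30 genes, which is 3.33% of them, against 2.25% of all genes. Of the 29 tested pathway genes this was 3.45%, against 3.86% of tested genes. The PPP1R15A match overlapped no CARE match. No window was found for ALDH1L2, EIF2AK1, EIF4EBP1, GPT2, INHBE, NUPR1, PSPH, PYCR1 and SHMT2. The 5 matches in genes whose RNA changed between the times are given on the strand of the gene, with up to 40 bases on either side and none beyond the start, because they let the element be seen in promoters of genes that moved in opposite directions. Capitals mark the match, and positions count the transcription start as 0.
JDP2, chr14:75427966-75428021, plus strand, match from −16 to −9: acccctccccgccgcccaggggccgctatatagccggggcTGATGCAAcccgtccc
ASNS, chr7:97872429-97872516, minus strand, match from −68 to −61: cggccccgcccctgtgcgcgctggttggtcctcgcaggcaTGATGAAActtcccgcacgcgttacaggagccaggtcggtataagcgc
ATF3, chr1:212565176-212565263, plus strand, match from −191 to −184: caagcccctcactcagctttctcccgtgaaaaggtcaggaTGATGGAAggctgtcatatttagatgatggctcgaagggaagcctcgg
PPP1R15B, chr1:204411997-204412067, minus strand, match from −227 to −220: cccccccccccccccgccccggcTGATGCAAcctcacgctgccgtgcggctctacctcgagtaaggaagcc
CHAC1, chr15:40953222-40953309, plus strand, match from −209 to −202 on the opposite strand: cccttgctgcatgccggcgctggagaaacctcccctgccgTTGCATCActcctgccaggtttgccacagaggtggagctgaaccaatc
Genes with a match went both ways. Of the 6 tested genes with a match, JDP2, ASNS and PPP1R15B were higher at 8 h, ATF3 and CHAC1 were lower, and CEBPG was not called. Among all tested genes 19.9% were called higher and 18.8% lower. The 23 tested genes with a window and no match also went both ways, with 16 higher, 3 lower and 4 not called. The median log2FC was 0.33 with a match and 0.39 without. Elements outside the windows were not looked for, so a gene without a match can still hold an element.

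Most of the pathway's messengers rose between 4 h and 8 h. With edgeR's quasi-likelihood test on TMM-normalized counts and Benjamini-Hochberg adjustment over all 12559 genes, 24 of the 36 genes were higher at 8 h at an adjusted p below 0.05 (66.7%, where 19.9% of all tested genes were called higher). A further 5 were lower (13.9%, where 18.8% of all tested genes were called lower), and 7 were not called. Because the genes were chosen with earlier results of these data known, these shares were not tested against those of all genes. The median log2 fold change (log2FC) of the 36 genes was 0.43, and that of all tested genes was 0.00. With library size alone as the scaling, 22 were higher and 8 lower, with a median of 0.32, while that scaling moved the median of all genes to −0.11 and the share of higher genes among all calls from 51.4% to 34.0%. DEGs also needed an absolute log2FC above 1, a doubling or halving. By that threshold TRIB3 and GDF15 were higher, 2 of 36 against 1.45% of all tested genes, and 0 were lower, against 3.88% of all tested genes. Limma-Voom and DESeq2 also gave 2 DEGs each.

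The times did not overlap in 35 of the 36 genes (97.2%), with the 8 h values higher in 27 and lower in 8, and they did not overlap in 69.7% of all tested genes. The exception was DDIT4. Compared with the spread of all tested genes, 6 of the 36 lay above the 95th percentile of log2FC (0.69) and 24 above the 75th (0.26), while 5 lay below the 25th (−0.31) and 0 below the 5th (−0.94). These genes are also more abundant than most, with a median log2-CPM of 7.17 against 4.91. The middle range of the pathway genes was a mean log2-CPM between 6.09 and 8.30. In the 2843 genes in that range the median log2FC was 0.11, with 35.4% called higher and 15.9% lower. When edgeR was run with offsets that remove the trend with abundance, the median of the 36 genes was 0.31, with 22 higher and 8 lower. Of all 12559 tested genes, 2268 were then higher and 2319 lower, with a median of 0.00.

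**Figure D1:**
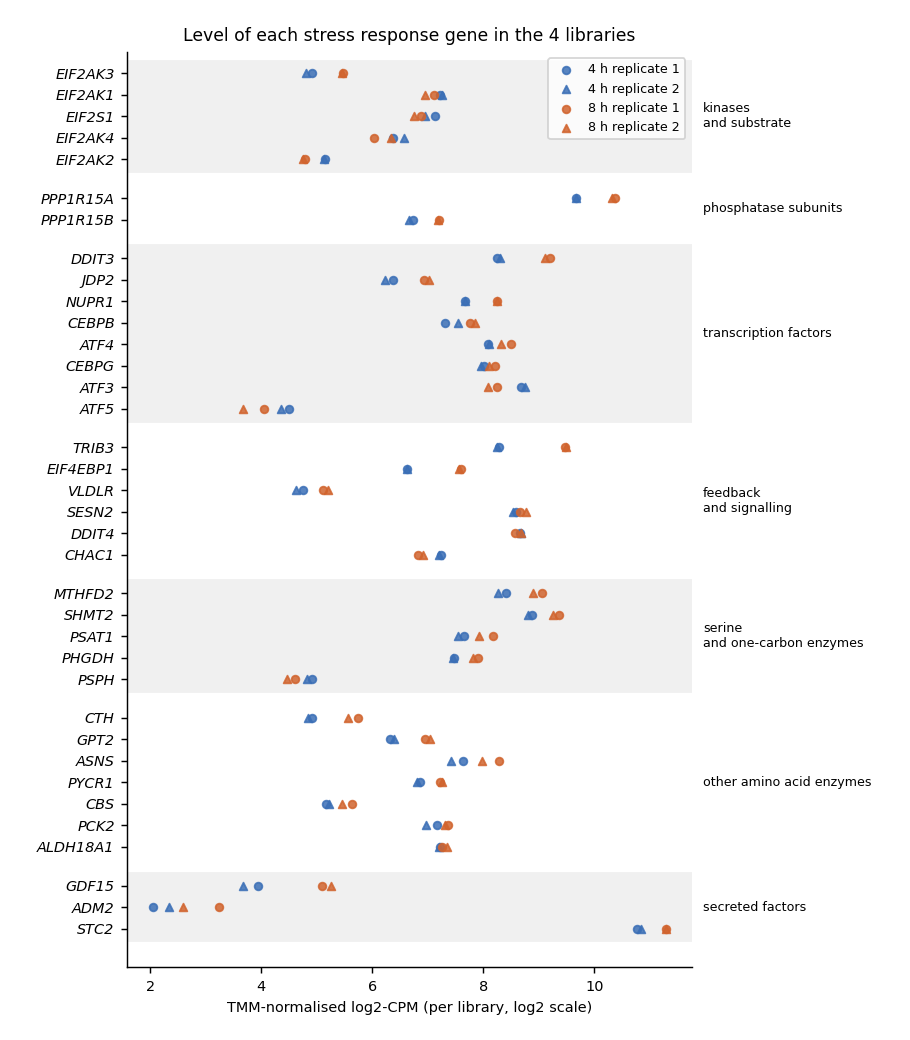
TMM-normalized log2-CPM (x axis, log2 scale) of the 36 genes that passed the filter, by role, with 1 point per library (blue 4 h, orange 8 h, circles replicate 1, triangles replicate 2). Most orange points lie to the right of the blue ones, the points of ATF3, ATF5, CHAC1, PSPH and 4 of the 5 kinase and substrate genes lie to the left, and those of DDIT4 overlap.

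The eIF2 alpha kinases did not move together. EIF2AK3 (PERK), which senses unfolded protein in the endoplasmic reticulum, had 287 and 265 normalized counts at 4 h and 424 and 420 at 8 h. It rose (log2FC 0.61, standard error 0.11, edgeR adjusted p = 0.000293). EIF2AK2 (PKR), which senses double-stranded RNA, had 337 and 335 at 4 h and 264 and 257 at 8 h (log2FC −0.37, standard error 0.12, edgeR adjusted p = 0.0192). EIF2AK4 (GCN2), which senses uncharged tRNA and stalled ribosomes, had 792 and 913 at 4 h and 622 and 769 at 8 h (log2FC −0.30, standard error 0.11, edgeR adjusted p = 0.0315). Both 8 h libraries of PKR and GCN2 were below both 4 h libraries, but the GCN2 replicates lay far apart. EIF2AK1 (HRI), which responds to heme shortage and to signals from stressed mitochondria, went from 1443 ± 14.2 to 1251 ± 92.6 normalized counts (SD, n = 2 each), and EIF2S1, which encodes the phosphorylated eIF2 alpha itself, went from 1257 ± 110 to 1080 ± 61.3. These were not called (log2FC −0.20 and −0.22, edgeR adjusted p = 0.0567 and 0.0559). Levels were also set per length, as mean normalized CPM per kb of the canonical transcript. The order at both times was then HRI (34.1 at 4 h, 29.6 at 8 h), GCN2 (16.1 and 13.1), PERK (6.35 and 9.71) and PKR (3.52 and 2.72). At 4 h PKR was below PERK only per length, with canonical transcripts of 9975 bases for PKR and 4536 for PERK. In normalized counts PKR was above PERK at 4 h.

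The falls among the kinases were weak. The call of GCN2 was lost without replicate 2 at 4 h (log2FC −0.19) or replicate 1 at 8 h (−0.15), and that of PKR without either 4 h library (−0.37 in both cases). With DESeq2, on all 4 libraries, neither was called at about the same log2FC (−0.29 and −0.37, adjusted p = 0.110 and 0.101). By contrast, HRI and EIF2S1 were called lower without replicate 1 at 8 h (−0.28 each). With library size alone HRI and EIF2S1 were called lower as well (−0.31 and −0.32).

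Both genes for the subunits that direct protein phosphatase 1 to eIF2 alpha, and so end the response, were higher at 8 h. PPP1R15A (GADD34), the stress-induced subunit, had 7801 and 7831 normalized counts at 4 h and 12614 and 12229 at 8 h (log2FC 0.67, standard error 0.07, edgeR adjusted p = 2.6e-07). PPP1R15B (CReP), the constitutive subunit, had 1013 and 966 at 4 h and 1400 and 1383 at 8 h (log2FC 0.49, standard error 0.08, edgeR adjusted p = 0.0001). Within each library there were 7.70 and 8.10 counts of PPP1R15A for each count of PPP1R15B at 4 h, and 9.01 and 8.84 at 8 h.

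Among the 8 transcription factors, 5 rose, 2 fell and 1 was not called (all tested genes: 19.9% higher, 18.8% lower). ATF4 (chromosome 22, 39915700 to 39918688, plus strand, hg19), the central factor, had 2591 and 2627 normalized counts at 4 h and 3475 and 3039 at 8 h. Its rise was modest (log2FC 0.32, standard error 0.08, edgeR adjusted p = 0.00315), and it was no longer called after correction for abundance (0.18, adjusted p = 0.0802) or without replicate 1 at 4 h (0.30, adjusted p = 0.0559). DDIT3 (CHOP; chromosome 12, 57910371 to 57915520, minus strand), a factor linked to cell death under lasting stress, rose more, from 2915 and 3007 to 5614 and 5272 (log2FC 0.88, standard error 0.07, edgeR adjusted p = 2.67e-08). The lowest 8 h library of DDIT3 was well above both 4 h libraries. DDIT3 lies against MARS1 and MBD6 on the opposite strand, and whether counting used the strand is not given in the sources used here.

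JDP2, a repressor that dimerizes with Jun and ATF proteins, had 795 and 713 normalized counts at 4 h and 1171 and 1235 at 8 h (log2FC 0.67, standard error 0.09). NUPR1, a small stress-induced chromatin protein, had 1955 and 1951 at 4 h and 2925 and 2917 at 8 h (log2FC 0.58, standard error 0.07). The edgeR adjusted p-values were 7.79e-06 for JDP2 and 5.85e-06 for NUPR1. CEBPB, a partner of ATF4, rose less (log2FC 0.38, edgeR adjusted p = 0.00158), with 1518 and 1779 normalized counts at 4 h. It was not called without replicate 1 at 4 h (0.26). CEBPG, another partner, had 2470 and 2371 at 4 h and 2827 and 2643 at 8 h. It was not called (log2FC 0.18, edgeR adjusted p = 0.0714), although it was without replicate 2 at 8 h (0.22).

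The factors that fell were ATF3 and ATF5. ATF3 (chromosome 1, 212738676 to 212794119, plus strand), an early-induced factor that is also a p53 target, had 3919 and 4109 normalized counts at 4 h and 2919 and 2592 at 8 h (log2FC −0.54, standard error 0.08, edgeR adjusted p = 2.18e-05). Both 8 h libraries were clearly below both 4 h libraries. ATF5, a factor of the mitochondrial stress response that is regulated in translation much like ATF4, had 214 and 195 at 4 h and 156 and 119 at 8 h (log2FC −0.56, standard error 0.16, edgeR adjusted p = 0.0104). It rested on few counts, overlaps NUP62 and IL4I1, and lost its call without replicate 1 at 4 h (−0.50) or replicate 2 at 8 h (−0.39), and with DESeq2 (−0.56, adjusted p = 0.0514). For each count of ATF3 there were 0.744 and 0.732 counts of DDIT3 at 4 h, and 1.92 and 2.03 at 8 h, a ratio that no scaling of the libraries can alter.

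**Figure D2:**
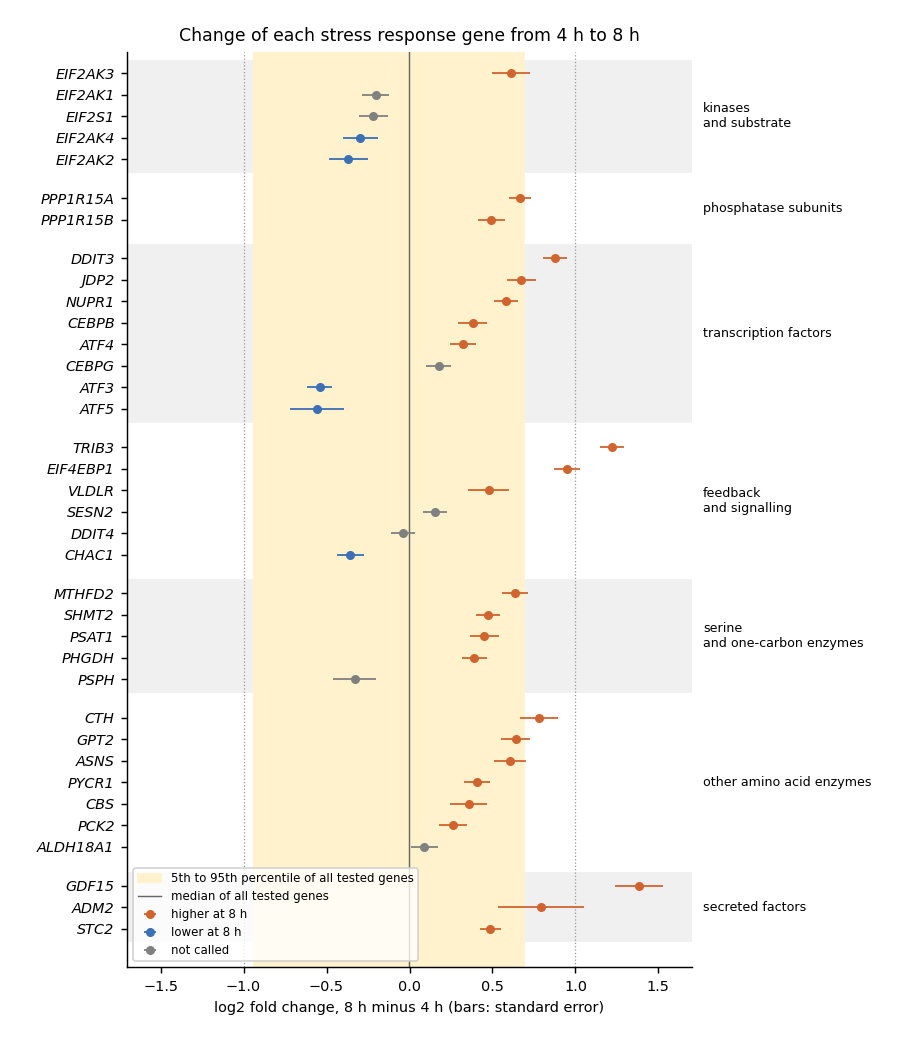
log2FC (x axis, 8 h minus 4 h) of the 36 genes, by role, with bars for the standard error (2 libraries per time), the yellow band from the 5th to the 95th percentile of all tested genes, and dotted lines at the fold threshold. TRIB3 (1.22) and GDF15 (1.38) pass the threshold, and ATF3 (−0.54) and ATF5 (−0.56) lie lowest.

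Feedback and signalling genes were divided. TRIB3 (chromosome 20, 343479 to 378203, plus strand), a pseudokinase induced by ATF4 and CHOP that restrains ATF4 and AKT, had 2987 and 2891 normalized counts at 4 h and 6819 and 6872 at 8 h. It was 2.33 times as high at 8 h (log2FC 1.22, standard error 0.07, edgeR adjusted p = 5.58e-10), with rank 106 of 12559 by log2FC. EIF4EBP1, which encodes a repressor of cap-dependent initiation, had 943 and 944 at 4 h and 1847 and 1799 at 8 h, just under the fold threshold (log2FC 0.95, standard error 0.08, edgeR adjusted p = 3.29e-08). VLDLR, a lipoprotein receptor, went from 245 ± 14.2 to 341 ± 16.7 (SD, n = 2 each; log2FC 0.48, edgeR adjusted p = 0.00431), a call that was lost without replicate 2 at 4 h (0.42).

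CHAC1, a glutathione-degrading enzyme that CHOP and ATF4 induce, moved against TRIB3. It had 1448 and 1412 normalized counts at 4 h and 1081 and 1153 at 8 h (log2FC −0.36, standard error 0.08, edgeR adjusted p = 0.00179). There were 2.06 and 2.05 counts of TRIB3 for each count of CHAC1 at 4 h, and 6.31 and 5.96 at 8 h. The inhibitors of the growth kinase mTORC1 that are targets of p53 as well as ATF4 were not called. SESN2 had 3686 and 3563 at 4 h and 3870 and 4202 at 8 h (log2FC 0.15, edgeR adjusted p = 0.105), and it was called without replicate 1 at 8 h (0.21). DDIT4 (REDD1) had 3882 and 3909 at 4 h and 3634 and 3942 at 8 h (log2FC −0.04, standard error 0.07, edgeR adjusted p = 0.689).

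Enzymes of serine and folate metabolism rose in 4 of the 5 tested genes, where 19.9% of all tested genes were called higher. MTHFD2, the mitochondrial folate dehydrogenase of proliferating cells, had 3240 and 2948 normalized counts at 4 h and 5073 and 4550 at 8 h (log2FC 0.64, standard error 0.08, edgeR adjusted p = 3.83e-06). SHMT2, which moves a carbon unit from serine to folate in mitochondria, had 4494 and 4288 at 4 h and 6314 and 5865 at 8 h (log2FC 0.47, standard error 0.07, edgeR adjusted p = 4.29e-05). The first enzymes of serine synthesis, PHGDH and PSAT1, rose by similar amounts (log2FC 0.39 and 0.45, edgeR adjusted p = 0.000522 and 0.000394). PSPH, which catalyses the last step of the same route, had 285 and 270 at 4 h and 231 and 210 at 8 h, lower in both 8 h libraries but not called (log2FC −0.33, standard error 0.13, edgeR adjusted p = 0.051). It was called lower without replicate 1 at 8 h (−0.40) and with library size alone (−0.43).

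Of the 7 other enzymes of amino acid metabolism 6 rose and 0 fell, against 19.9% and 18.8% of all tested genes. ASNS, asparagine synthetase, had 1907 and 1627 normalized counts at 4 h and 2975 and 2399 at 8 h (log2FC 0.61, standard error 0.10, edgeR adjusted p = 7.23e-05). CTH, which makes cysteine from cystathionine, had 286 and 274 at 4 h and 510 and 450 at 8 h (log2FC 0.78, standard error 0.11, edgeR adjusted p = 2.56e-05). GPT2, a mitochondrial alanine transaminase, had 764 and 806 at 4 h and 1183 and 1264 at 8 h (log2FC 0.64, standard error 0.09, edgeR adjusted p = 9.64e-06). The 8 h libraries stood above the 4 h libraries in each case, and the replicates of ASNS were the widest apart.

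CBS, which makes cystathionine, and PYCR1, which completes proline synthesis, rose with log2FC of 0.36 and 0.41 (edgeR adjusted p = 0.0149 and 0.000544). PCK2, the mitochondrial enzyme that makes phosphoenolpyruvate, rose with a log2FC of 0.26 (edgeR adjusted p = 0.0195). ALDH18A1, which acts earlier in proline synthesis than PYCR1, went from 1417 ± 14.7 to 1509 ± 62.6 (SD, n = 2 each) and was not called (log2FC 0.09, edgeR adjusted p = 0.395). The calls of CBS and PCK2 were not stable. CBS was not called without replicate 1 (0.32) or 2 (0.38) at 4 h or replicate 1 at 8 h (0.27), and PCK2 was not called without replicate 2 at 4 h (0.17). With library size alone neither was called (0.25 and 0.16), nor with DESeq2 (adjusted p = 0.0725 and 0.0553), and PCK2 was not called with the abundance correction (0.15).

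All 5 serine and folate enzymes had a higher level in replicate 1 than in replicate 2 at 8 h, by a median of 0.14 in log2-CPM, and at 4 h by 0.08. Across the 36 genes the replicates differed by a median of 0.07 at 4 h and 0.10 at 8 h. The widest gap was that of ADM2 at 8 h, 0.64.

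The secreted factors that were detected, GDF15, STC2 and ADM2, all rose, where 19.9% of all tested genes were called higher. GDF15 (chromosome 19, 18485541 to 18499986, plus strand), a circulating stress hormone induced by CHOP, ATF4 and p53, had 144 and 120 normalized counts at 4 h and 325 and 365 at 8 h. It was 2.61 times as high at 8 h (log2FC 1.38, standard error 0.14, edgeR adjusted p = 4.38e-07), the largest rise of the 36 genes, with rank 62 of 12559. STC2, a glycoprotein secreted under stress of the endoplasmic reticulum, had 16712 and 17455 at 4 h and 23983 and 23883 at 8 h (log2FC 0.49, standard error 0.06, edgeR adjusted p = 7.98e-06). ADM2, a peptide related to adrenomedullin, had only 42 and 51 raw counts at 4 h and 86 and 45 at 8 h. Its call (log2FC 0.79, standard error 0.26, edgeR adjusted p = 0.0201) was lost without replicate 1 at 8 h (0.41), replicate 1 at 4 h (0.64) or replicate 2 at 4 h (0.95), and with DESeq2 on all libraries (0.79, adjusted p = 0.118). Its log2FC was 1.07 without replicate 2 at 8 h, and it overlaps SBF1 on the opposite strand.

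Summed over the pathway, the genes that passed the filter held 8171 and 8134 TMM-normalized CPM at 4 h and 11178 and 10858 at 8 h, a ratio of 1.35 between the times. The sums of the kinases and eIF2 alpha were 434 ± 2.80 at 4 h and 387 ± 6.01 at 8 h (SD, n = 2 each), a ratio of 0.89. All other roles had ratios from 1.24, for the transcription factors, to 1.57, for the phosphatase subunits. These sums are led by a few abundant genes. Per kb of canonical transcript, the highest mean levels at 4 h were those of STC2 (419), PPP1R15A (347) and DDIT3 (342), and at 8 h those of DDIT3 (629), STC2 (587) and PPP1R15A (551).

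**Figure D3:**
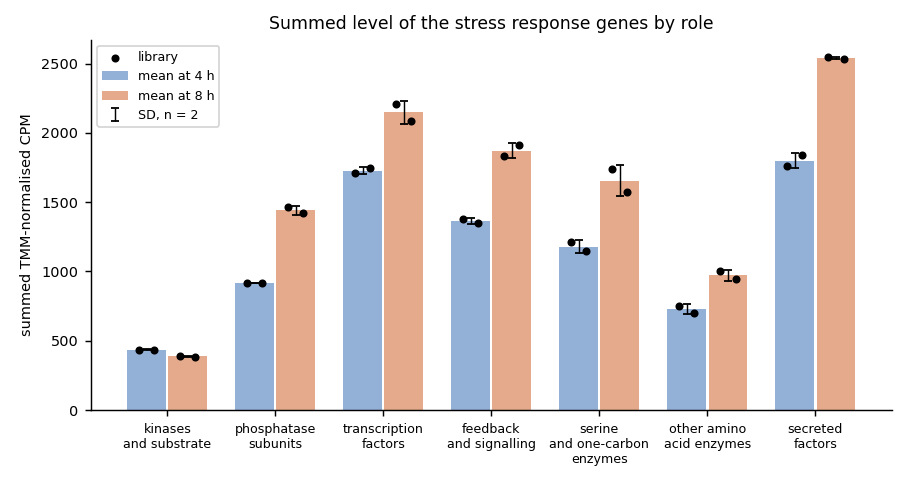
Summed TMM-normalized CPM (y axis, from 0) of the pathway genes by role, with bars for the mean of 2 libraries, error bars for the SD and a point per library. The kinases and eIF2 alpha were at 434 and 387, while the secreted factors, nearly all STC2, were at 1800.2 and 2540.

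Other genes of the pathway were taken from lists written with earlier results of these data known. In the eIF2 and eIF2B machinery 3 of 15 genes were higher (EIF2S2, PPP1CB and EIF2B2, with log2FC of 0.36, 0.33 and 0.32) and 1 was lower (EIF2B1, −0.29), with a median of −0.06. The share called higher was close to the 19.9% of all tested genes, and 0 of the 15 were called higher without replicate 2 at 4 h. The edgeR adjusted p-values of these 4 genes were 0.00487, 0.00777, 0.0222 and 0.0304. The most abundant of the list per length, PPP1CA, which encodes a catalytic subunit of protein phosphatase 1, was not called (−0.14). The list of ATF4 targets in transport and tRNA charging holds amino acid transporters, tRNA synthetases and the tRNA exporter XPOT. Of its 21 genes 16 were higher and 0 lower, with a median of 0.52. Of all tested genes 19.9% were called higher and 18.8% lower. The cystine transporter SLC7A11 (log2FC 1.45, edgeR adjusted p = 2.58e-09) and the glycine transporter SLC6A9 (1.01, adjusted p = 9.59e-08) were DEGs, and the glycyl-tRNA synthetase GARS1 (0.81) and the transporter heavy chain SLC3A2 (0.68) were called below the fold threshold. SLC6A9 lay at that threshold and was below it with library size alone (0.90), with the abundance correction (0.93), with a CPM above 2, without replicate 2 at 4 h (0.96) and without replicate 2 at 8 h (0.97).

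Autophagy genes listed as ATF4 targets were mixed, with 5 of 11 higher and 2 lower and a median of 0.09, or −0.02 with library size alone. Of all tested genes 19.9% were called higher and 18.8% lower, and the 5 higher autophagy genes became 3 without either 4 h library. MAP1LC3B and the cargo receptor SQSTM1 were higher (log2FC 0.67 and 0.32, edgeR adjusted p = 9.64e-06 and 0.00133), as was ATG3 (0.37), while ATG5 and ATG7 were lower (−0.35 and −0.34). These lists share their libraries with the 36 genes and all their values come from the same fit.

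The other branches of the unfolded protein response run through ATF6 and, by way of ERN1 (IRE1), XBP1. Of 16 genes of these branches 8 were higher and 0 lower, against 19.9% and 18.8% of all tested genes. Their median log2FC was 0.24. The cochaperone DNAJB9 was a DEG (log2FC 1.5, edgeR adjusted p = 8.52e-09), and HERPUD1 (0.95) and ERN1 (0.74) rose below the fold threshold. The chaperone HSP90B1, the most abundant of the list per length, had a log2FC of 0.00 (edgeR adjusted p = 0.984). Several pathway genes, among them GDF15, SESN2, DDIT4 and ATF3, are also known p53 targets. In a list of 20 other p53 targets 17 were higher and 1, GADD45A (−0.21), was lower, against the same 19.9% and 18.8%. The median of the list was 0.46. CDKN1A, the cell cycle inhibitor p21, had a log2FC of 0.82 (edgeR adjusted p = 1.21e-08), and FDXR (1.2), TP53INP1 (0.99) and TNFRSF10B (0.89) had larger ones. The part of p53 in the values of the shared genes was not tested.

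**Figure D4:**
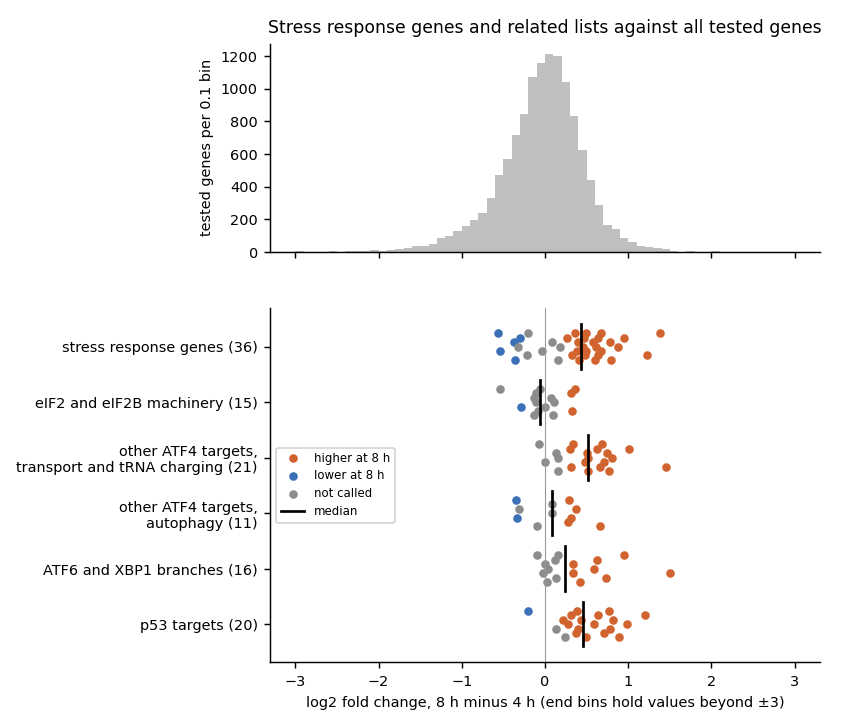
Upper panel, number of all 12559 tested genes per 0.1 of log2FC (x axis, 8 h minus 4 h). Lower panel, log2FC of the 36 pathway genes and of 5 related lists, coloured by call, with black lines for the medians, which were 0.43, −0.06, 0.52, 0.09, 0.24 and 0.46 from top to bottom.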

How the data were processed

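Polyadenylated RNA of the 4 cultures was sequenced from stranded libraries. The authors checked reads with FASTQC, aligned them to hg19 with Bowtie (version 1.2.0 in the submitters' processing notes), kept only reads that map to 1 genomic position, and deposited unfiltered raw counts for each NCBI Gene identifier. The annotation, the counting tool and its use of the strand are not given in the sources used here. Ungapped alignment loses reads over splice junctions. The single-position rule loses reads shared with pseudogenes, which GENCODE names for 7 of the 39 genes, among them ATF4, ASNS, PSAT1 and MTHFD2, and 11 genes overlap another listed gene.

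Genes with CPM above 1 in 2 libraries were kept. Symbols came from the RefSeq gene table (GRCh38.p14, 23308 of 23459 matched), and hg19 positions and canonical transcript lengths from GENCODE on GRCh37. The test was edgeR 4.0.16 (quasi-likelihood, TMM, time as the only term) in R 4.3.3. A normalized count is a count divided by its effective library size and multiplied by the mean of these sizes, and the standard error is the size of the log2FC over the square root of F. Alternatives were Limma-Voom (limma 3.58.1, the study's test), DESeq2 1.42.0, other scalings and filters, a replicate block, and leaving out each library. An offset from a loess curve (span 0.4) on mean log2-CPM served as the correction for abundance. The tests were tried on simulated counts. All 39 genes are named, and of each related list the largest changes (at most 3 per direction) and the most abundant gene per length. The genes, lists and tests were chosen with earlier results of these data known. With 2 libraries per time the tests borrow the spread across genes, whose biological coefficient of variation was 6.52%.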

Additional observations from a re-analysis of the deposited data

How the results depend on the processing

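Of the 29 pathway genes called between 4 h and 8 h, 20 were called in the same direction in all 12 alternatives and 22 in the 8 that kept the 4 libraries. The number of lower genes, 5, was the least stable. It was 2 with DESeq2, and 8 with library size alone, with the abundance correction, with a CPM above 2 and with the replicate block. The added genes were EIF2AK1, EIF2S1 and PSPH, or DDIT4 in place of PSPH with the abundance correction. The number of higher genes ran from 21 with DESeq2 to 25 with the replicate block. The median log2FC, 0.43, was 0.32 with library size alone and 0.31 with the abundance correction. Leaving out 1 library at a time, with the lone library of a time assumed to vary like the other time, gave 20 to 25 higher, 3 to 7 lower and 2 to 3 DEGs, with a median from 0.41 to 0.44. The counts of 3 lower genes came without replicate 1 and without replicate 2 at 4 h. The uncalled ALDH18A1 (log2FC 0.09) turned to −0.017 with library size alone and to −0.023 with the abundance correction. The uncalled DDIT4 ran from −0.10 without replicate 2 at 8 h to 0.017 without replicate 1 at 8 h. DDIT4 was called lower with the abundance correction (−0.19).

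With the replicate number as a block, 25 pathway genes were higher and 8 lower, and CEBPG was called higher. Deviations of same-numbered libraries had a correlation of 0.05 over all tested genes and 0.11 over the 9396 genes with a mean count of at least 100. With 2 replicate numbers and no label that ties the numbers to a shared culture or day, the libraries were not treated as paired. Of all tested genes 2500 were higher and 2367 lower, with DESeq2 1782 and 1490, without replicate 1 at 4 h 1605 and 1509, and without replicate 2 at 4 h 1619 and 1522. Among the small related lists, autophagy genes went from 5 higher to 2 with library size alone and with the abundance correction, and the eIF2 machinery from 3 higher and 1 lower to 1 and 4 with library size alone and to 0 higher without replicate 2 at 4 h. DEGs among the transporters and tRNA synthetases went from 2 to 1 in 5 of the alternatives. The causes of these differences were not tested.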

Other observations

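Across the 36 tested pathway genes, log2FC had a Pearson r of −0.06 with the log10 of gene length, 0.09 with mean log2-CPM and −0.20 with the log10 of canonical transcript length (Spearman rho −0.08, 0.10 and −0.02). These are descriptions over genes measured in the same 4 libraries, which are not independent replicates.

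EIF4EBP1 restrains initiation at the cap, and the phosphorylation of the product of EIF2S1, which was not called, restrains the delivery of the initiator tRNA. There were 0.707 and 0.80 counts of EIF4EBP1 for each count of EIF2S1 at 4 h, and 1.64 and 1.74 at 8 h. For each count of ATF4 there were 1.13 and 1.14 counts of DDIT3 at 4 h and 1.62 and 1.73 at 8 h. Ratios within a library do not depend on how libraries are scaled, but they show unequal change only, and the length of each gene enters their size.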
